A study of Mus musculus with 8 samples.

Results

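The enzymes of the pentose phosphate pathway were examined in the polysomal and non-polysomal RNA of mouse oocytes. The members were the 7 genes G6pdx, Pgls, Pgd, Rpia, Rpe, Tkt and Taldo1, each taken by its symbol out of 25574 genes in the table. Earlier results of these data were known when they were chosen. Each symbol matched 1 gene. All 7 passed the filter on low values, a mean above 0.1 FPKM in at least 1 dataset, as did 14292 genes in all. FPKM is the number of sequenced fragments of a transcript, divided by its length and by the size of the library, so levels can be compared roughly between genes. The lengths were those of the annotated exons or, for Tkt and Taldo1, lengths searched to fit the values. The transcripts made in the oocytes can differ from them in length. An effect of the RNA amplification on the levels was not tested.

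The oocytes came from CD1 mice 8 weeks of age and had reached nuclear envelope breakdown (NEBD), the start of the first meiotic division. By the paper, the mice had been injected with pregnant mare serum gonadotropin before the oocytes were collected. Fully grown oocytes were held in prophase by IBMX, a phosphodiesterase inhibitor, and then cultured without it for 180 min. Before lysis they were treated for 10 min with cycloheximide at 0.1 mg/mL, which holds ribosomes on their mRNA, and 200 oocytes were pooled for each sucrose gradient profile. RNA from the fractions with free subunits and single ribosomes gave the 4 libraries of the non-polysomal (NP) dataset. By the paper these fractions also hold stored mRNA bound in protein particles. RNA from the fractions with several ribosomes per transcript gave the 4 libraries of the polysomal (P) dataset. The top fraction of each gradient was left out, and the paper does not exclude that it held some stored RNA. The study's methods call the 4 profiles independent biological replicates. No genotype or strain differed between the datasets, and both shared the culture and the cycloheximide treatment. The libraries are numbered from 1 to 4 in each dataset. Their RNA was depleted of ribosomal RNA and amplified as a whole before sequencing, and the amount that went into each amplification was not stated. A value is therefore a share of its own library, and the P to NP ratio of a transcript is not the proportion of its molecules on polysomes.

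The pentose phosphate pathway draws glucose 6-phosphate away from glycolysis. Its oxidative arm makes NADPH, which keeps glutathione reduced and feeds reductive synthesis, and ends in a pentose phosphate. Its non-oxidative arm interconverts sugar phosphates, and so either supplies ribose for nucleotides or returns carbon to glycolysis. In mouse oocytes the pathway is known for its part in the redox balance, and in the cumulus-oocyte complex its product PRPP feeds purine synthesis. G6pdx, on the X chromosome, encodes the glucose 6-phosphate dehydrogenase that opens the oxidative arm.

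The members lie on 7 chromosomes of the GRCm38 build. In the oxidative arm, G6pdx (ENSMUSG00000031400.10) is at chrX:74409483-74429194 on the minus strand, the lactonase gene Pgls (ENSMUSG00000031807.10) at chr8:71592176-71601092 on the plus strand, and the 6-phosphogluconate dehydrogenase gene Pgd (ENSMUSG00000028961.15) at chr4:149149991-149166771 on the minus strand. In the non-oxidative arm, the isomerase gene Rpia (ENSMUSG00000053604.5) is at chr6:70765720-70792232 on the minus strand and the epimerase gene Rpe (ENSMUSG00000026005.15) at chr1:66700831-66719805 on the plus strand. The transketolase gene Tkt (ENSMUSG00000021957.7) is at chr14:30548359-30574722 and the transaldolase gene Taldo1 (ENSMUSG00000025503.5) at chr7:141392199-141402968, both on the plus strand.

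G6pdx and Tkt have close copies, and the coding sequences show how far reads of coding bases of a member and its copy can be told apart. The retrocopy G6pd2 on chromosome 5 has 1 coding exon against 12 in G6pdx, and the aligned coding sequences are 94.7% identical over 1542 bases, with 82 differing bases and a longest identical run of 105 bases. The 90 bases with the most differences, within 1 exon of each gene, are given for both genes, from GENCODE M21 transcripts on GRCm38, with capitals at the 10 bases that differ. The G6pdx stretch is in exon 10 at chrX:74410836-74410925 on the minus strand, and the G6pd2 stretch at chr5:61810002-61810091 on the plus strand.
G6pdx: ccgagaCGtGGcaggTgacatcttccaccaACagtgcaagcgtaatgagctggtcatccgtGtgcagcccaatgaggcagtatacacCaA
G6pd2: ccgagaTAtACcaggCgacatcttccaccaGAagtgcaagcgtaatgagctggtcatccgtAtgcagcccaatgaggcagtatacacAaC
Between the capitals the letters of both genes are the same. The study's reads were sequenced to a length beyond the longest identical run of 105 bases. Within the aligned coding bases, only a read short enough to lie within a run therefore carries no mark of its gene. The untranslated parts of the exons were not aligned.

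The transketolase copies are far more distant. Tktl2 on chromosome 8, with 1 coding exon against 14 in Tkt, is 66.2% identical to Tkt, and Tktl1 on the X chromosome 64.4% identical, with a longest identical run of 20 bases in each. The 90 bases of Tkt and Tktl2 with the fewest differences, within 1 exon of each gene, are shown in the same way, with capitals at the 19 bases that differ. The Tkt stretch is in exon 4 at chr14:30560594-30560683 and the Tktl2 stretch at chr8:66512144-66512233, both on the plus strand.
Tkt: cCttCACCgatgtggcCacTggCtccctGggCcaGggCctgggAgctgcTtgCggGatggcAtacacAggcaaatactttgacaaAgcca
Tktl2: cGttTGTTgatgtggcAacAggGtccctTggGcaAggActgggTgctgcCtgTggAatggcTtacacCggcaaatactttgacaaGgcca

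The levels of the members lay far apart within each dataset. By the median over libraries, NP levels ran in the order G6pdx at 594, Taldo1 at 121, Tkt at 51.6, Rpe at 7.79, Pgd at 3.56, Pgls at 3.25 and Rpia at 3.07 FPKM. In P the order was G6pdx at 243, Taldo1 at 94.7, Tkt at 17.7, Rpe at 4.49, Rpia at 2.41, Pgd at 1.85 and Pgls at 0.134 FPKM. Among neighbours in these orders, only Tkt and Rpe had ranges over libraries that did not overlap, in NP and in P alike. The order among Rpe, Pgd, Pgls and Rpia was within the spread of the libraries. Single libraries also crossed the gap above them, Pgls at 55.8 FPKM in NP replicate 1 lying over the lowest Tkt and Taldo1 values of NP, and Pgd and Rpia in P replicate 1 lying over the lowest Tkt values of P. Within a library, Taldo1 was above Tkt in 4 of 4 NP and 4 of 4 P libraries, and G6pdx above Taldo1 in 4 of 4 NP and 3 of 4 P libraries.

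**Figure D1:**
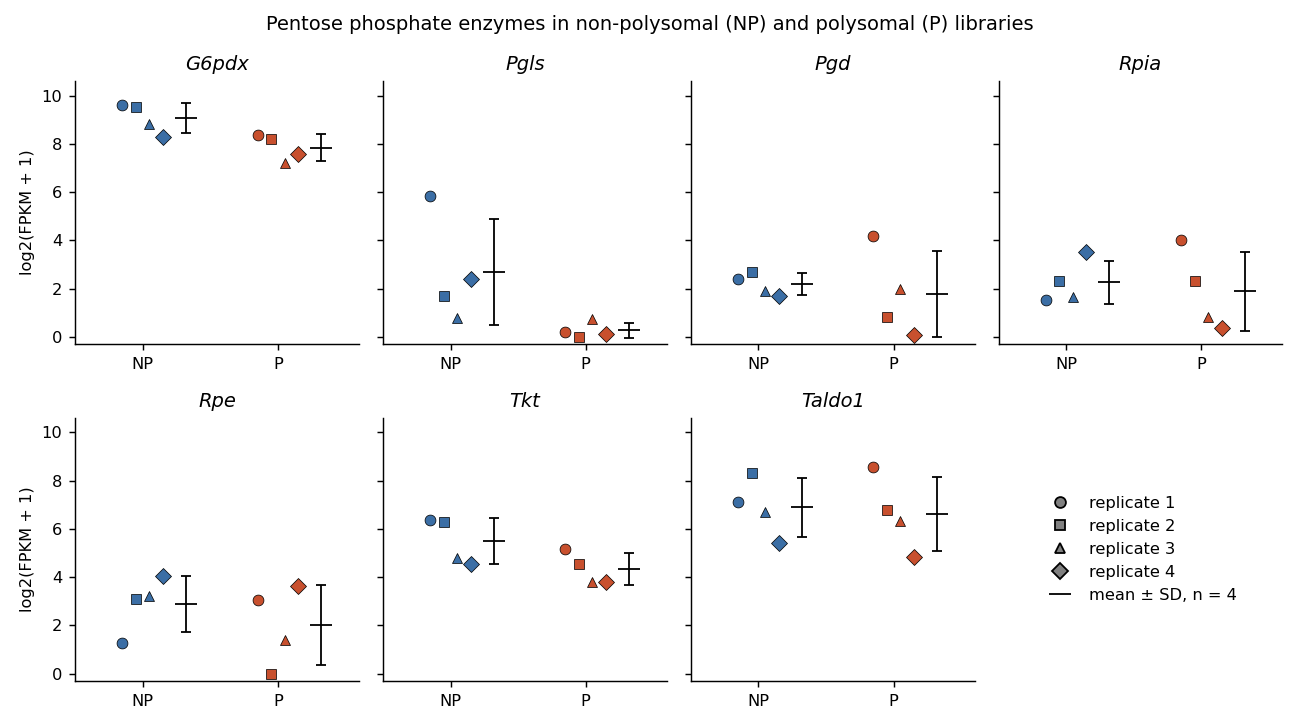
Level of each of the 7 members as log2(FPKM + 1), with 1 point per library (marker shapes give the replicate number) and the mean ± SD (n = 4) beside the points, NP in blue and P in red. G6pdx, Taldo1 and Tkt lie between 12.9 and 782 FPKM in every library, and the 4 other members at or below 55.8 FPKM.

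None of the 7 members passed the test between P and NP, in which limma (log2(FPKM + 1), Benjamini-Hochberg adjusted p below 0.1 over all genes tested) called 3 genes lower in P, 0.021% of those tested, and 0 higher. By voom on recovered counts no member passed either, where 1.32% of 12782 genes were called lower and 0.0156% higher. At an unadjusted p below 0.05, G6pdx and Pgls were lower in P and no member was higher, where 9.47% of all genes tested were lower and 0.476% higher. The fitted log2 fold change of P over NP was below 0 for 7 of 7 members and for 71.4% of all genes tested. Its median was −0.87 over the members and −0.39 over all genes tested. Another scaling of the libraries moves that median of all genes, to −0.02 with quantile normalization and to 0.57 with library medians centred, so fold changes are also given relative to it. Each library holds RNA of pooled oocytes, so differences between single oocytes cannot be told. The P libraries listed fewer genes above 0 (9139 to 11339) than the NP libraries (11703 to 13753), and the part of this in the lower P values of low transcripts was not tested.

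G6pdx was the member with the highest level and stood among the abundant transcripts of the oocyte. It was at 782, 740.4, 448 and 314 FPKM in NP replicates 1 to 4, and at 331, 297, 145 and 189.6 FPKM in P replicates 1 to 4. The datasets overlapped in a single pair of libraries, NP replicate 4 lying under P replicate 1, and NP was above P in 15 of 16 pairs. The mean was 571 ± 227 FPKM in NP and 241 ± 87.8 FPKM in P (SD, n = 4), a mean 2.37 times higher in NP. The log2 fold change of P over NP was −1.22 (SE 0.55), with a 95% interval from −2.40 to −0.05 and an adjusted p of 0.491 by limma. Relative to the median of all genes tested it was −0.83. With library medians centred the value was −0.27. In a voom fit on counts, which were recovered from the size of the steps between FPKM values, it was −1.08, or −0.14 relative to the median of the genes in that fit. These values rested on 1564 to 10048 counts per library, so that counting error was small beside the spread between libraries.

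Some of the exons of G6pdx lie under those of Ikbkg, a regulator of NF-kappa-B signalling on the other strand, over 418 bases or 13.6% of the exon length of G6pdx, and the libraries did not keep the strand. Ikbkg itself was at 5.59 to 11.0 FPKM in NP and 0.638 to 5.31 FPKM in P, far under G6pdx. G6pd2 had 1 to 3 counts in each NP library and 0 to 3 in each P library, a level of 0.337 ± 0.110 FPKM in NP and 0.180 ± 0.162 FPKM in P (SD, n = 4). How reads that match both genes were assigned was not stated. The values of G6pd2 rest on few counts and are uncertain.

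Pgls, which opens the lactone made by G6pdx, was the one member with every NP library above every P library, as in 5.92% of all genes tested. Its level was 55.8, 2.25, 0.729 and 4.26 FPKM in NP replicates 1 to 4, and 0.169, 0, 0.656 and 0.0991 FPKM in P replicates 1 to 4. NP replicate 1 held 88.5% of the NP sum, and the NP replicate 3 value of 0.729 was close to the P replicate 3 value of 0.656. The counts behind these values were 671, 11, 20 and 122 in NP and 3, 0, 11 and 1 in P, so the separation of replicate 3 was between 20 and 11 counts. The mean was 15.7 ± 26.7 FPKM in NP and 0.231 ± 0.292 FPKM in P (SD, n = 4), and the NP mean was 2.41 FPKM without replicate 1. The log2 fold change was −2.41 (SE 0.99), with a 95% interval from −4.53 to −0.28 and an adjusted p of 0.457 by limma, or −2.01 relative to the median of all genes tested. Without NP replicate 1 the value was −1.36, with a pseudocount of 0.1 it was −4.21, by voom −4.59, and as a ratio of mean FPKM values −6.09. Its exons share 776 bases (20.6%) with Fam129c on the same strand. Fam129c was at 0, 4.97, 0.849 and 0.259 FPKM in NP and 5.26, 0, 0.316 and 0 FPKM in P. It was above Pgls in NP replicates 2 and 3 and in P replicate 1, and not above it in the other libraries. Reads of the shared bases cannot be told apart between the genes, and their part in the low Pgls values was not tested.

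Pgd, which makes the second NADPH of the oxidative arm and releases the pentose phosphate, was low in both datasets. Its level was 4.32, 5.49, 2.79 and 2.27 FPKM in NP replicates 1 to 4, and 17.0, 0.774, 2.93 and 0.0579 FPKM in P replicates 1 to 4. The P values spanned both sides of the NP values, with P replicate 1 above and P replicates 2 and 4 below all of them. In counts, P replicate 1 had 514 and P replicate 4 had 1, against 46 to 131 in the NP libraries. The mean was 3.72 ± 1.47 FPKM in NP and 5.18 ± 7.95 FPKM in P (SD, n = 4), and the P mean was 1.25 FPKM without replicate 1. On the log2 scale the fold change was −0.42 (SE 0.97), with a 95% interval from −2.51 to 1.67 and an adjusted p of 0.860 by limma, and its sign turned with the scaling, to 0.49 with quantile normalization. Relative to the median of all genes tested it was −0.032.

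The 3 oxidative enzymes act one after the other, but their transcripts were not at like levels. In FPKM, G6pdx was 135 to 181 times higher than Pgd in the NP libraries, with annotated exon lengths of 3080 and 6447 bases. In the P libraries the same ratio ran from 19.5 to 3274, and P replicate 4, at the upper end, had a single Pgd count.

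In the non-oxidative arm, Rpia converts ribulose 5-phosphate to ribose 5-phosphate, the form that enters nucleotide synthesis. Its level was 1.93, 4.02, 2.13 and 10.4 FPKM in NP replicates 1 to 4, and 15.2, 4.02, 0.798 and 0.279 FPKM in P replicates 1 to 4. Here too P replicate 1 was above all NP libraries and P replicates 3 and 4 were below them. The mean was 4.62 ± 3.98 FPKM in NP and 5.08 ± 6.95 FPKM in P (SD, n = 4), on 28 to 424 counts in NP and 4 to 383 in P. The log2 fold change was −0.37 (SE 0.99), with a 95% interval from −2.50 to 1.75 and an adjusted p of 0.880 by limma, and it was 0.57 with quantile normalization. Relative to the median of all genes tested it was 0.018.

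Rpe makes xylulose 5-phosphate from the same ribulose 5-phosphate. Its level was 1.41, 7.42, 8.16 and 15.4 FPKM in NP replicates 1 to 4, and 7.31, 0, 1.66 and 11.5 FPKM in P replicates 1 to 4. The datasets overlapped over most of their range, and P replicate 2 had 0 counts where NP replicate 1, the lowest NP library, had 14. Rpe was at 8.11 ± 5.75 FPKM in NP and 5.12 ± 5.29 FPKM in P (SD, n = 4). Its log2 fold change was −0.87 (SE 1.02), with a 95% interval from −3.06 to 1.32 and an adjusted p of 0.733 by limma, and it was 0.09 with library medians centred. Relative to the median of all genes tested it was −0.47. It was −0.19 without P replicate 2, −1.41 without NP replicate 1 and −2.03 by voom. Kansl1l on the other strand shares 558 bases, or 17.9%, of the Rpe exons and was at a like level, 2.78 to 10.5 FPKM in NP and 0.883 to 7.70 FPKM in P, so reads of the shared bases cannot be told apart between the genes.

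Tkt, the thiamine-dependent transketolase, moves carbon pairs between sugar phosphates. Its level was 80.9, 76.8, 26.4 and 22.5 FPKM in NP replicates 1 to 4, and 34.5, 22.5, 12.9 and 13.0 FPKM in P replicates 1 to 4. NP was above P in 14 of 16 pairs of libraries, the exceptions being NP replicates 3 and 4 against P replicate 1. The mean was 51.7 ± 31.5 FPKM in NP and 20.7 ± 10.2 FPKM in P (SD, n = 4), 2.49 times higher in NP. The log2 fold change was −1.17 (SE 0.68), with a 95% interval from −2.63 to 0.30 and an adjusted p of 0.564 by limma. Relative to the median of all genes tested it was −0.78, and with library medians centred the fold change was −0.21. By voom on recovered counts it was −0.96, or −0.021 relative to the median of the genes in that fit.

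Tkt and G6pdx differed between the datasets by a like ratio of their means, 0.401 and 0.421. Within libraries, Tkt was at 8.45 ± 2.27% of the G6pdx level in NP and 8.43 ± 1.57% in P (SD, n = 4), a difference far under either SD. Its share of the summed level of the members was 6.05 ± 1.37% in NP and 5.07 ± 0.43% in P. Replicate 1 was the highest library of its dataset for both genes.

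The copies of Tkt did not share its values. Tktl2, an intronless gene, was at 22.7, 21.5, 36.6 and 17.3 FPKM in NP replicates 1 to 4 and at 9.18, 53.1, 14.1 and 46.9 FPKM in P replicates 1 to 4. It stood at 28.0 to 138% of the Tkt level in NP and 26.6 to 361% in P, so that in some libraries the copy was above the member. Its mean was 24.5 ± 8.36 FPKM in NP and 30.8 ± 22.4 FPKM in P (SD, n = 4), with a log2 fold change of 0.03 (SE 0.72) and an adjusted p of 0.988 by limma. Tktl1 was at 0, 0.311, 0.722 and 0 FPKM in NP and at 29.6, 0, 0 and 0 FPKM in P, with 344 counts in P replicate 1 and 14 in all the NP libraries together.

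**Figure D2:**
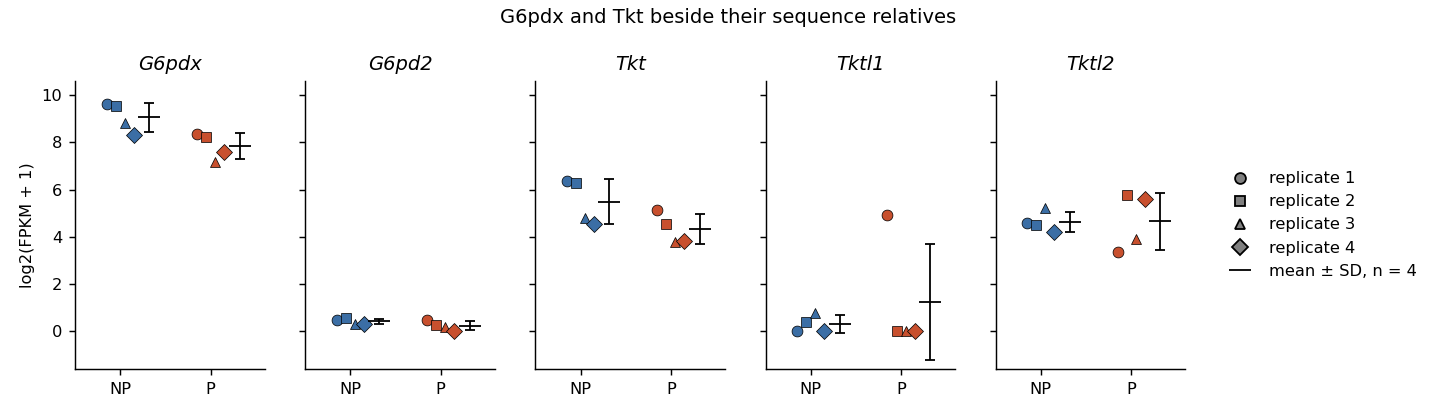
Level of G6pdx and Tkt beside their copies G6pd2, Tktl1 and Tktl2 as log2(FPKM + 1), with 1 point per library and the mean ± SD (n = 4) for NP (blue) and P (red). G6pd2 stays under 0.471 FPKM, Tktl1 is seen mainly in P replicate 1 at 29.6 FPKM, and Tktl2 lies between 9.18 and 53.1 FPKM, in the range of Tkt.

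Taldo1, the transaldolase that joins the pathway back to glycolysis, was the second most abundant member. Its level was 138, 320.5, 104 and 41.2 FPKM in NP replicates 1 to 4, and 371, 109.7, 79.7 and 27.3 FPKM in P replicates 1 to 4. The datasets overlapped throughout, and NP was above P in 9 of 16 pairs. The mean was 151 ± 120 FPKM in NP and 147 ± 153 FPKM in P (SD, n = 4). The log2 fold change was −0.27 (SE 0.81), with a 95% interval from −2.004 to 1.47 and an adjusted p of 0.894 by limma, and it was 0.69 with library medians centred. Relative to the median of all genes tested it was 0.12, and 1.04 relative to that of the voom fit. The interval includes both the value of G6pdx and 0, so neither a change like that of G6pdx nor the lack of one can be told at this spread.

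**Figure D3:**
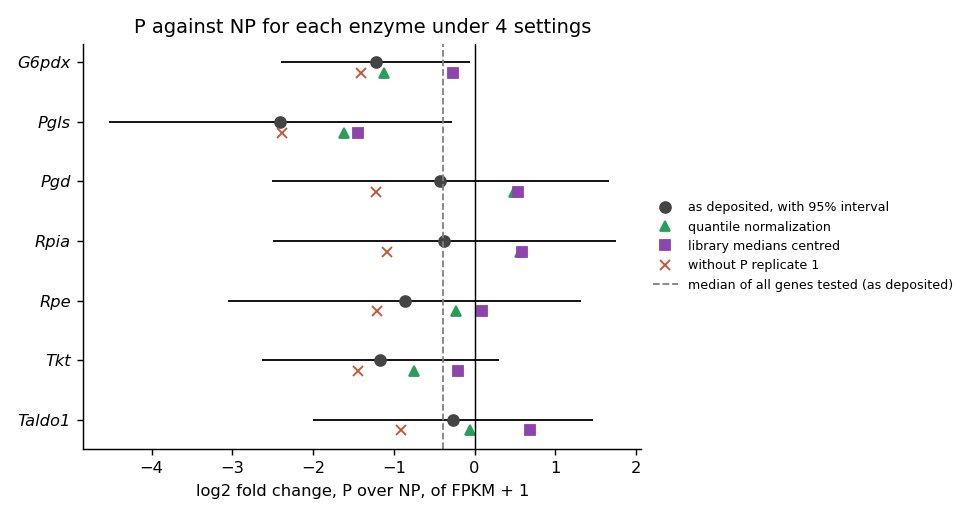
Log2 fold change of P over NP for each member, with the 95% interval of the limma fit on values as deposited, the median of all genes tested as a dashed line, and the values with quantile normalization, with library medians centred and without P replicate 1. The intervals of G6pdx and Pgls end below 0, at −0.05 and −0.28, and those of the 5 other members include 0.

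P replicate 1 was the highest P library for 5 of the 7 members (G6pdx, Pgd, Rpia, Tkt and Taldo1), against 33.5% of all genes tested with a value in P. It held 81.8% of the P sum of Pgd. Without it the log2 fold changes were −1.40 for G6pdx, −1.22 for Pgd, −1.08 for Rpia, −0.91 for Taldo1 and −1.44 for Tkt, while the median of all genes tested was −0.47. The markers of granulosa and cumulus cells summed to 31.8 FPKM in this library, within the P range of 2.10 to 64.0 FPKM and the NP range of 15.3 to 97.8 FPKM. Of the 12 markers, Cyp19a1 and Nr5a2 had the highest means. Cyp19a1 was at 6.07 to 75.2 FPKM in NP and 0.190 to 62.6 FPKM in P. Nr5a2 was at 8.43 to 61.4 FPKM in NP and 0.487 to 35.9 FPKM in P. Foxl2, Inhba, Has2, Ptx3 and Fst were listed at 0 in all 8 libraries. Without Cyp19a1 and Nr5a2 the sums were 0 to 6.34 FPKM in NP and 0 to 10.3 FPKM in P. The 10 oocyte markers summed to 5918 to 12423 FPKM in NP and 8154 to 31618 FPKM in P. The part of these cells in the member values was not tested.

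The sum of the members was 410 to 1157 FPKM in NP and 242 to 777 FPKM in P, and G6pdx took most of it. G6pdx made up 72.4 ± 5.77% of the sum in NP and 62.2 ± 15.2% in P (SD, n = 4), and Taldo1 17.1 ± 7.73% in NP and 29.3 ± 15.2% in P. Pgls, Pgd, Rpia and Rpe together took 1.66 to 7.90% in NP and 1.10 to 5.11% in P. The ratio of the summed oxidative to the summed non-oxidative levels was 3.10 ± 0.88 in NP (1.83 to 3.79) and 2.05 ± 1.202 in P (0.813 to 3.65). The ranges overlapped and the means differed by about 1 SD. The oxidative sum was mostly G6pdx, since Pgls reached at most 7.13% and Pgd at most 5.12% of the G6pdx level in a library. Taldo1 was at 13.1 to 43.3% of the G6pdx level in NP and 14.4 to 112% in P, being above G6pdx in P replicate 1 alone.

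**Figure D4:**
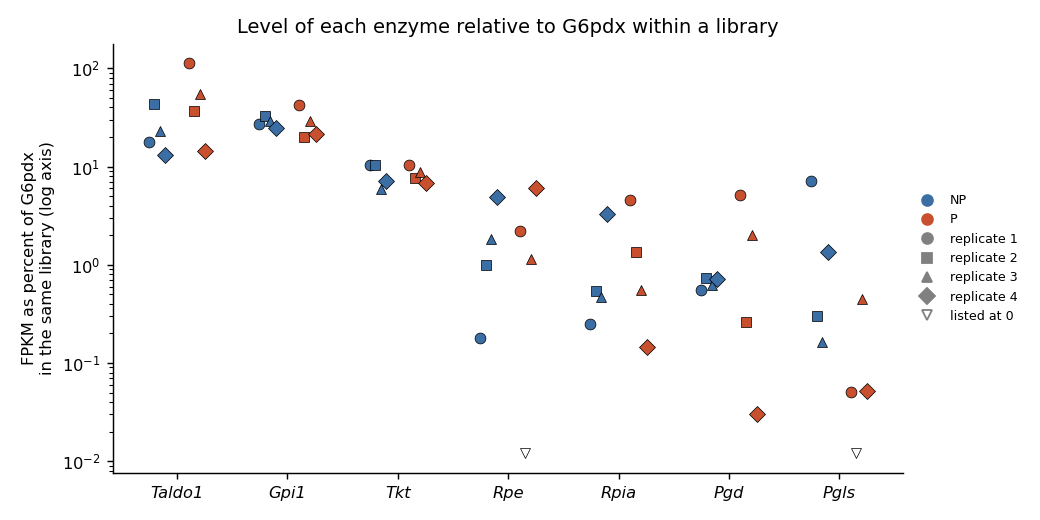
Level of each other member and of Gpi1, the isomerase of glycolysis, as a percentage of the G6pdx level in the same library, on a log axis, with 1 point per library for NP (blue) and P (red) and open triangles for libraries listed at 0. Tkt stays between 5.90 and 10.4% in all 8 libraries, whereas Taldo1 runs from 13.1 to 112% and Pgd from 0.0305 to 5.12%.

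The genes whose pattern over the 8 libraries was most like that of each member were found among 6411 genes with a mean above 10 FPKM, by the root mean square difference of centred log2(FPKM + 1) values. For G6pdx they were Ppp2r5d (0.22), a regulatory subunit of protein phosphatase PP2A, and Zswim4 (0.25). For Tkt they were Fiz1 and again Ppp2r5d (0.25 each). Pgd was closest to Senp3 (0.22), a SUMO protease, and Fank1 (0.36), and Taldo1 to the DNA damage protein gene Ddb2 (0.30) and to Gaa (0.35), the lysosomal acid glucosidase. The distances were longer for Rpia (0.48 to AB099516 and 0.50 to Thg1l), Rpe (0.59 to Plekhm1 and to Prkar1a) and Pgls (0.67 to Cd68 and 0.72 to Cpm).

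The enzymes around the pathway were read from 4 lists, and no gene of them passed the test. Among 20 enzymes that feed the pathway or branch from it, 18 were tested, 11 had a log2 fold change below 0 and the median was −0.18. One of them, the ribokinase gene Rbks, had an unadjusted p below 0.05, with a log2 fold change of −1.29 (SE 0.55) and an adjusted p of 0.470 by limma. It was at 0, 6.20, 2.03 and 0.884 FPKM in NP and at 0.143, 0, 0 and 0 FPKM in P. The list's highest mean over both datasets was that of Prpsap1, a protein bound to the PRPP synthetases, at 193 ± 153 FPKM in NP and 119 ± 67.8 FPKM in P (SD, n = 4), although in P the related Prpsap2, named after its values were seen, was higher at 158 ± 31.2 FPKM.

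Gpi1, the isomerase that competes with G6pdx for glucose 6-phosphate, was named after its values were seen. It was at 214, 241, 132 and 77.7 FPKM in NP and 140.4, 59.8, 42.2 and 40.4 FPKM in P, which was 28.5 ± 3.31% of the G6pdx level in NP and 28.2 ± 10.2% in P (SD, n = 4). Gpi1 had a log2 fold change of −1.29 (SE 0.62) with an adjusted p of 0.511 by limma.

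Of 12 other sources of NADPH, 11 were found, 8 were tested and 4 had a log2 fold change below 0, with a median of 0.02. The highest was Me1, the cytosolic malic enzyme, at 125, 71.6, 205 and 276 FPKM in NP and 199, 99.2, 252 and 121 FPKM in P. Its mean was 169 ± 89.6 FPKM in NP and 168 ± 70.4 FPKM in P (SD, n = 4), with a log2 fold change of 0.06 (SE 0.59, 95% interval −1.22 to 1.34) and an adjusted p of 0.967 by limma. Me1 was thus under G6pdx in 4 of 4 NP libraries and in 3 of 4 P libraries.

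Of 11 enzymes that use NADPH, all 11 were tested, 7 had a log2 fold change below 0 and the median was −0.23. The most abundant of these enzymes was the aldose reductase gene Akr1b3, at 413 ± 202 FPKM in NP and 258 ± 63.4 FPKM in P (SD, n = 4).

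The 13 genes that build or salvage purines from PRPP, the product of ribose 5-phosphate, were all tested. Of these 10 had a log2 fold change below 0 and the median was −0.26. The adenylosuccinate lyase gene Adsl had the highest mean of this list through a single library, at 324 FPKM in P replicate 4 and at 2.48 to 17.5 FPKM in the 7 others.

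**Figure D5:**
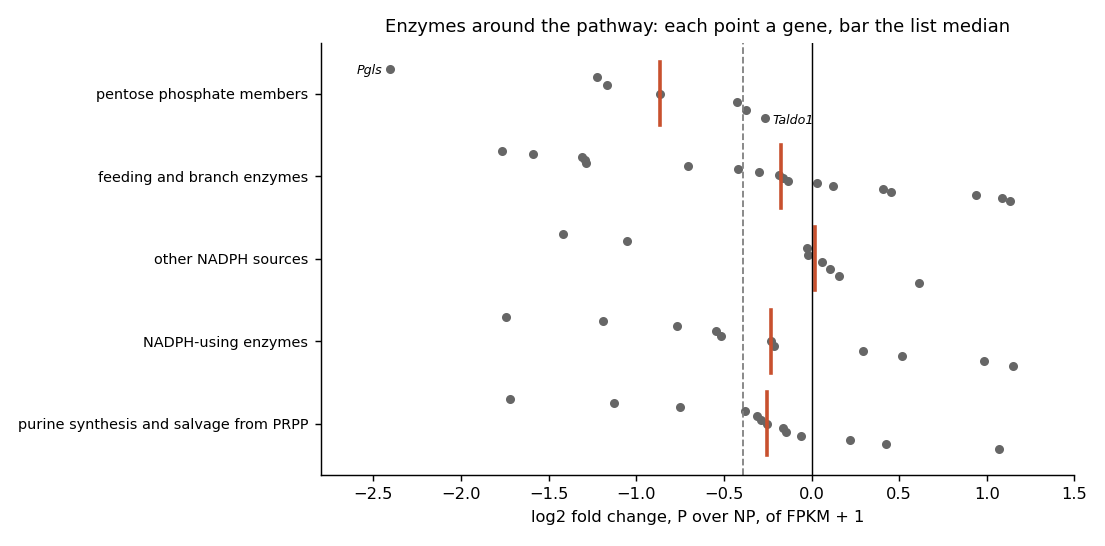
Log2 fold change of P over NP for each tested gene of the 7 members and of the 4 lists of surrounding enzymes, with 1 point per gene, the median of each list as a bar, the median of all genes tested (−0.39) as a dashed line, and the lowest and highest of the members labelled. The medians are −0.87 for the members and between −0.26 and 0.02 for the 4 lists.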

How the data were processed

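The reads were trimmed by the authors with Trim Galore 0.4.1, mapped to GRCm38 with Hisat2 2.0.5 and quantified per gene in Seqmonk. The deposited FPKM values cover 25574 genes and 8 libraries, on a linear scale and without further scaling between libraries. 2 more deposited tables, with the authors' dataset means and ratios and with their DESeq2 fold changes and p-values, were not used.

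FPKM values are not counts, so the comparison of P with NP was made with limma 3.58.1 in R 4.3.3, with a trend on log2(FPKM + 1), 2-sided, in all 14292 genes with a mean above 0.1 FPKM in at least 1 dataset. Fold changes are on the log2(FPKM + 1) scale, which understates the change of low genes. Calls used a Benjamini-Hochberg adjusted p below 0.1 over all genes tested. Libraries were grouped by their titles. The fit was tested on simulated data.

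In each library, FPKM values are whole multiples of what 1 count is worth for a gene. Counts were whole within 0.01 plus 5e-06 of the count for 13915 genes, 89.3% of those above 0. This was at the annotated exon length for 6973 genes, the span in the table for 395 and a length searched for the gene for 6547. Many lengths were tried in that search, so a gene with few counts can fit one by the search alone. The percentage is therefore no test of the recovery. Tkt and Taldo1 came out whole at a searched length and the 5 other members at the annotated one. Whether a count is a read or a pair was not stated. The libraries were scaled to 1299375 to 7594632 counts in NP and 2677942 to 4699325 in P, so that 1 count per kilobase was worth 0.132 to 0.770 FPKM in NP and 0.213 to 0.373 FPKM in P. The library preparation did not keep the strand.

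The members and lists were chosen with earlier results of these data known. The text names the members, list genes that were called, that did not overlap between datasets or had the highest mean, the 2 genes most like each member, and overlapping genes and copies. A gene that this rule also names is not reported here. Other genes are named as chosen after their values were seen, Rbks and Gpi1 among them. Tigar was matched as 9630033F20Rik, and Nadk2 was not matched. Alternatives were another pseudocount, other filters on low values, 2 scalings, a replicate block, leaving out each library, ratios of means and, chosen after seeing the data, voom on the recovered counts and means without a library far from the others. Zygote libraries and qRT-PCR values of the study were not analysed here.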

Additional observations from a re-analysis of the deposited data

Results flagged for a closer look

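In 20 sets of 4 libraries looked at, 14 of them of members, 3 held a library far from the others. The gap of that library to its nearest neighbour, as a part of the whole range, exceeded Dixon's 95% critical value. For normally distributed values about 1 in 20 such sets would exceed it. FPKM on a linear scale can be skewed, so that rate need not hold here. Pgls stood at 55.8 FPKM in NP replicate 1, with a gap of 0.936 of the range, and the other NP libraries had a mean of 2.41 FPKM. Pgd stood at 17.0 FPKM in P replicate 1, with a gap of 0.830 of the range, and the other P libraries had a mean of 1.25 FPKM. Tktl1 stood at 29.6 FPKM in P replicate 1 and was at 0 in the other P libraries, which by itself makes the gap the whole range.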

How the results depend on the processing

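No member was called under any alternative run, with adjusted p values from 0.186 (Pgls, voom) upward. The number of genes called over the whole table, 3 as reported, was 5 with a pseudocount of 0.1, 1 without a filter, 5 with a mean above 1 FPKM, 0 with quantile normalization, 0 with library medians centred and 171 by voom. Leaving out 1 library gave 0 to 5, with 0 without any one of the NP libraries or P replicate 3 and 5 without P replicate 1. A fit with a replicate block called 1 gene, and G6pdx had an adjusted p of 0.350 there. Each profile gave an NP and a P pool, but that a number marks the same profile was not stated. Deviations of same-numbered libraries correlated at 0.139, 0.0518, 0.251 and 0.155 over 11374 genes, and since 1 value was under 0.1 the numbers were not taken as pairs. Every P library correlated best with the NP library of its number, as did the NP libraries with P except NP replicate 2 (0.136 with P replicate 1), and G6pdx, Pgls and Tkt were higher in NP in 4 of 4 same-numbered pairs.

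The log2 fold changes of G6pdx, Pgls and Tkt stayed below 0 under every alternative run. Those of the other members turned above 0 with quantile normalization (Pgd 0.49, Rpia 0.57), with library medians centred (Pgd 0.53, Rpia 0.58, Rpe 0.092, Taldo1 0.69), by voom (Taldo1 0.10) and as ratios of means (Pgd 0.48, Rpia 0.13). Leaving out 1 library gave −1.41 to −0.19 for Rpe, −3.03 to −1.36 for Pgls, −1.22 to 0.14 for Pgd, −1.08 to 0.14 for Rpia and −0.91 to 0.33 for Taldo1, with the values above 0 found without P replicate 4 for the last 3 genes (0.14, 0.14 and 0.33), without NP replicate 4 for Rpia (0.05) and without NP replicate 2 for Taldo1 (0.21). Values resting on under about 20 counts, as in every P library for Pgls, carry a wide counting error, and the cause of the low counts was not tested.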
